A study of Mus musculus with 12 samples.

Results

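Regulatory T cells (Tregs) that carried a tethered form of IL-2, 3A10t, were compared with Tregs that carried the empty vector (EV), both without IL-2 in the medium. This comparison used 6 of the 12 RNA libraries of the study, replicates 1 to 3 of 3A10t and of EV no IL-2. It covered the 15043 gene symbols, of 55228 listed, whose mean over all 12 libraries was at least 1 TPM (a gene's share of the library's transcripts, scaled to the same total in each library). The question put to these libraries was what the tethered ligand changes in Tregs that receive no other IL-2. The 6 remaining libraries, 3 of 1G12t without IL-2 and 3 of EV+IL-2, whose EV cultures stayed in IL-2, shared the fit and are shown where 3A10t was tested against them.

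All groups shared 1 source of cells. CD4+ cells of 16 NOD.Foxp3-GFP mice were pooled and split into 3 parts, and GFP+CD25+ Tregs were sorted from each part on a different machine and activated separately. The labels name lymph nodes as the tissue, the study's methods name lymph nodes and spleens with another set of surface markers, and the labels give no age or sex. Activation used beads against CD3 and CD28 in recombinant human IL-2, and the cells were transduced on day 2. The vector was a retroviral MSCV plasmid with the surface protein Thy1.1 as a reporter behind an internal ribosomal entry site. EV held the reporter alone. The 3A10t vector also held, upstream of that site, the mutant IL-2 3A10 joined by a linker derived from CD25 to a mutant IL-2 receptor β chain, orthoIL-2Rβ, that was engineered to bind the mutant cytokine. IL-2 was washed out on day 4, and the cells stayed in culture for 5 more days until the Thy1.1+ ones were purified on day 9. The part of each EV culture that became EV+IL-2 was instead left in recombinant mouse IL-2, by the study's methods. The replicates of a group were thus cultures of 1 pool of cells, a shared replicate number marks a shared sort, and p-values measure the spread between these cultures and not between animals.

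IL-2 acts through a receptor of an α chain (CD25, encoded by Il2ra), a β chain (Il2rb) and the common γ chain (Il2rg). The β and γ chains bind the kinases JAK1 and JAK3, which phosphorylate STAT5, and STAT5 then enters the nucleus and binds paired TTC and GAA motifs near its target genes. Tregs make almost no IL-2 of their own and depend on it for survival and for the expression of FOXP3. The receptor also feeds the PI3K, AKT and mTOR pathway, and STAT5 induces SOCS proteins and CIS, which dampen the receptor in turn.

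TPM keep no read numbers, so the depth is unknown. The factors that put the libraries on a common scale ran from 0.854 to 1.09 over the 12 libraries. They were 1.017, 1.026 and 1.076 in EV no IL-2 and 1.002, 0.854 and 0.962 in 3A10t replicates 1 to 3. Division by them raised 3A10t relative to EV no IL-2. The share of TPM on genes not annotated as protein coding ran from 11.8% to 14.8%. Fold changes below are differences on the log2(scaled TPM + 1) scale from a limma fit of all 12 libraries, and levels are scaled TPM, which are already divided by transcript length. All 6 listed T cell and Treg markers were present in every library of both groups, with a summed level of 1840.0, 1941 and 1931 TPM in EV no IL-2 and 1930.0, 1596 and 1752 in 3A10t replicates 1 to 3. The summed levels of 4 B cell, 5 myeloid, 2 CD8 T cell and 3 NK cell markers stayed at or below 17.1 TPM. B cell markers summed to 8.81, 10.1 and 10.1 TPM in EV no IL-2 and 12.1, 17.1 and 11.8 in 3A10t, and myeloid markers, with S100a8 listed at 0 in 2 EV libraries, to 2.09, 0.935 and 1.10 and 2.37, 2.45 and 3.31. Their part in the results was not tested. Of 6 erythroid markers, 5 stayed at or below 2.31 TPM, whereas Gata1 was at 66.8, 68.4 and 52.6 TPM in EV no IL-2 and 75.5, 86.4 and 89.9 in 3A10t. Effector CD4 T cell markers, nearly all of it Cd40lg, summed to 20.6, 18.6 and 22.5 TPM in EV no IL-2 and 19.7, 19.7 and 21.01 in 3A10t. In bulk RNA, fewer cells of a type and less RNA per cell cannot be told apart.

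The 3A10t vector carries 3 genes that the mouse genome has as well, and all 3 differed from EV. Il2 was at 0.491, 0.302 and 0.223 TPM in EV no IL-2 and 29.8, 28.3 and 18.3 in 3A10t, which is 4.28 ± 0.23 (SE) as a log2 fold change (adjusted p = 7.9e-06, limma). Thy1, which encodes the reporter as well as a surface protein of T cells, was at 3475, 3191 and 3193 TPM in EV no IL-2 and 222, 259 and 206 in 3A10t, without overlap (log2 fold change −3.84 ± 0.13, adjusted p = 2.7e-07, limma). Il2 did not overlap between the groups either. Both calls held without any single library, and at the gene level TPM pool RNA of the vector with that of the mouse gene. Il2rb was at 289, 259 and 249.8 TPM against 411, 347 and 355, also without overlap (log2 fold change 0.48, adjusted p = 0.037, limma). Without any single library other than 3A10t replicate 1 the adjusted p of Il2rb was 0.054 to 0.15. The plot of levels by library shows these 3 genes beside 5 named below.

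**Figure D1:**
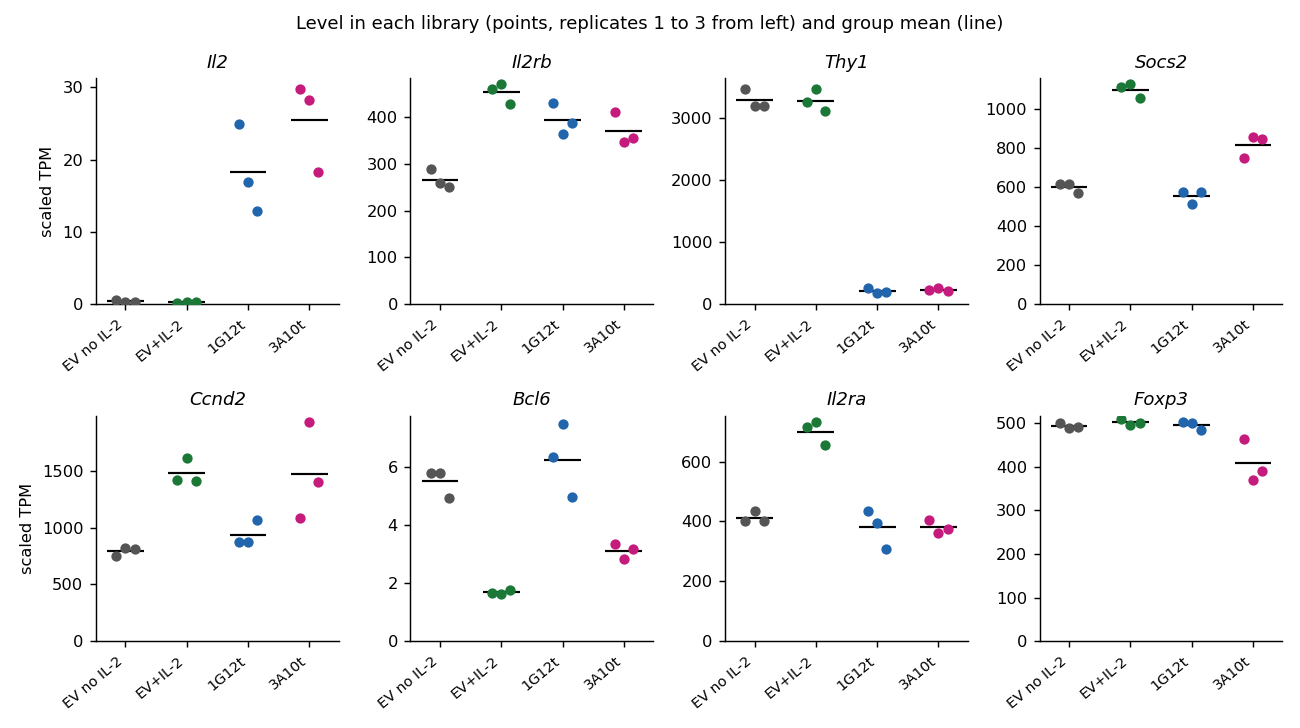
Level of 8 genes in each of the 12 libraries (y axis, scaled TPM from 0; points are libraries with replicates 1 to 3 from left to right, lines are group means of 3). Il2 is near 0 in both EV groups, Thy1 is low in both tethered groups, and Socs2, Ccnd2 and Bcl6 in 3A10t lie apart from EV no IL-2 on the side of EV+IL-2, with Ccnd2 replicates at 1083, 1926 and 1403 TPM.

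In the fit of all 12 libraries, most of the genes called were lower in 3A10t. At a Benjamini-Hochberg adjusted p under 0.05, 308 of 15043 genes were called (2.05%), 68 higher (0.452%) and 240 lower (1.6%) in 3A10t. The study's own threshold for a differentially expressed gene, a p under 0.01 before adjustment together with a log2 fold change past 0.25, was met by 1429 genes (9.5%), 426 higher (2.83%) and 1003 lower (6.67%). All 3 3A10t libraries lay above all 3 EV libraries for 2001 genes (13.3%) and below them for 1817 (12.1%). Over all genes the log2 fold change had a median of 0.026. It was −0.091 with TPM as deposited, and the called genes then split into 53 higher and 446 lower. With no filter on low TPM the split was 146 higher and 70 lower. With only the 6 libraries compared in the fit, 272 genes met the study's threshold on the higher side and 296 on the lower. The genes called lower were nearly all protein coding, 235 of 240, against 40 of 68 called higher.

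**Figure D2:**
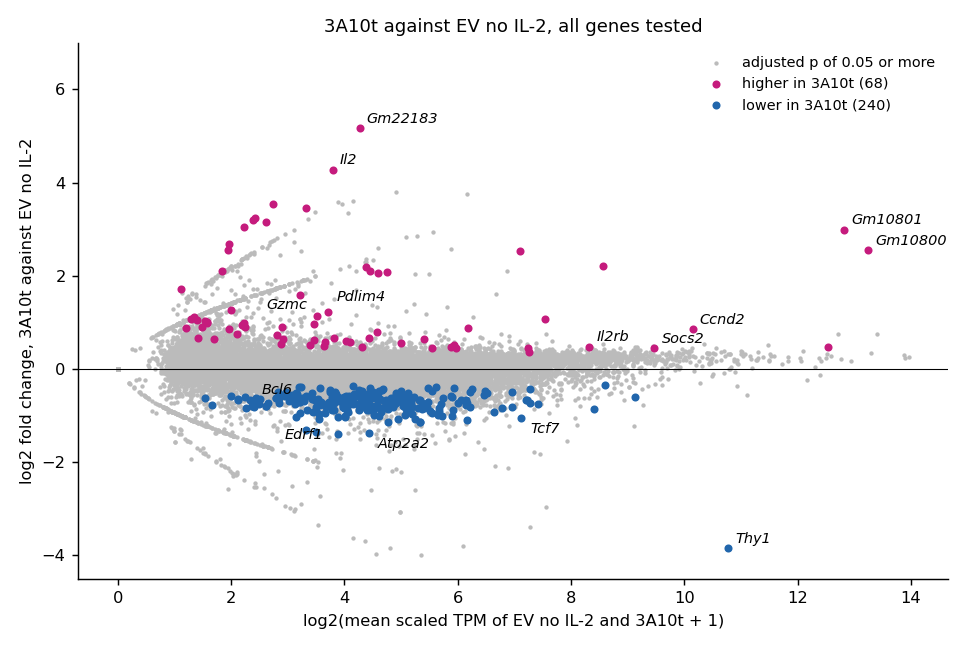
Log2 fold change of 3A10t against EV no IL-2 (y axis) against the log2 of the mean scaled TPM of both groups plus 1 (x axis) for the 15043 genes tested; grey points are not called, pink points are the 68 called higher and blue points the 240 called lower at an adjusted p under 0.05. Of the genes called, Gm22183 and Il2 (4.28) lie highest and Thy1 (−3.84) lowest, and some genes that are not called lie as low as Thy1.

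The 3A10t libraries differed among themselves more than the EV libraries did. The median SD of a gene over 3 libraries was 0.12 in EV no IL-2 and 0.22 in 3A10t on the log2 scale. It was 0.11 in EV+IL-2 and 0.15 in 1G12t. The fit gives all groups a shared spread for each gene, so its p-values can understate the spread of 3A10t. Within the sorts, the difference between the 3A10t and the EV library of the same number had an interquartile range over genes of 0.29 for replicates 1, 0.79 for replicates 2 and 0.51 for replicates 3. The 240 genes called lower had median differences of −0.33, −0.91 and −0.87 in the same order, and the 68 called higher 0.74, 1.24 and 0.92. These genes were chosen on the same values, so the medians are a description. Without 3A10t replicate 1, 3469 genes were called. Without 3A10t replicate 2 or 3 the count was 42 or 31, and without EV no IL-2 replicate 1, 2 or 3 it was 82, 29 or 25. With only the 6 libraries compared in the fit, the calls were Il2, Thy1 and the small RNA genes Gm22183 and Gm24125. Both small RNA genes were listed at 0 outside 3A10t and passed the filter on mean TPM only through 3A10t. Their calls are thus a description. Every other gene called below lost its call in that fit.

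Of the 16 genes of IL-2 receptor and signal tested, which leave out Il2rb as a gene of the vector, 0 were called in limma at an adjusted p under 0.05 and 3 had an unadjusted p under 0.05, which 26.0% of all genes had. Their median log2 fold change was −0.11, and −0.06 with the trend on transcript length removed, which is described below. Il2ra was at 402, 434 and 400.2 TPM in EV no IL-2 and 406, 361 and 376 in 3A10t, and the groups overlapped (log2 fold change −0.11 ± 0.11, adjusted p = 0.53, limma). Il2rg, the common γ chain, was at 1819, 2049 and 1886 against 2090.5, 2753 and 2368 TPM, with all 3 3A10t libraries above EV (adjusted p = 0.12, limma). Stat5b was at 123, 125 and 134 against 111, 87.5 and 112 TPM, with all 3 below (log2 fold change −0.30, adjusted p = 0.11, limma), and Stat5a at 54.1, 54.1 and 51.4 against 57.3, 38.9 and 37.9. Jak1 had a log2 fold change of −0.17 ± 0.13 and Jak3 of −0.13 ± 0.13. The adaptor Shc1, which links the β chain to RAS, was the only member at the study's threshold, at 85.8, 93.5 and 90.8 TPM against 84.1, 50.9 and 50.5 (log2 fold change −0.58, adjusted p = 0.084, limma).

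Targets and feedback genes of STAT5 lay above EV more often than below. Of 28 tested, 17 had all 3 3A10t libraries above EV, as 13.3% of all genes had, and Bcl6 alone had all 3 below (12.1% of all genes). Calls were made for 3 of the 28, Socs2 and Ccnd2 higher and Bcl6 lower, beside 2.05% of all genes, and 7 met the study's threshold on the higher side, beside 2.83%. The median log2 fold change was 0.30, and 0.19, 0.22 and 0.38 within the 3 sorts. Some members, among them Socs2, Ccnd2, Cish, Bcl2, Lta and Tnfrsf9, are genes that the study names from these same libraries. The counts are therefore no independent evidence of a direction. Socs2, a feedback inhibitor of cytokine receptors on chromosome 10 from 95385362 to 95417180, was at 619, 616 and 568 TPM in EV no IL-2 and 749, 860.0 and 848 in 3A10t, giving a log2 fold change of 0.44 ± 0.077 (adjusted p = 0.027, limma). Ccnd2, the gene of cyclin D2 that drives entry into the cell cycle, on chromosome 6 from 127125162 to 127152193, was at 751, 819 and 810.2 against 1083, 1926 and 1403 TPM (log2 fold change 0.85 ± 0.17, adjusted p = 0.039, limma). Bcl6, a transcriptional repressor that STAT5 is known to oppose, on chromosome 16 from 23965052 to 23988852, was at 5.81, 5.80 and 4.94 against 3.34, 2.85 and 3.17 TPM (log2 fold change −0.66 ± 0.13, adjusted p = 0.039, limma). For none of these 3 genes did the groups overlap. Without any single library other than 3A10t replicate 1, the adjusted p was 0.054 to 0.12 for Socs2, 0.085 to 0.15 for Ccnd2 and 0.095 to 0.16 for Bcl6.

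Other members of the same list met the study's threshold or no threshold. The costimulatory receptor OX40, Tnfrsf4, was at 2368, 2416 and 2174 TPM in EV no IL-2 and 2759.9, 4289.9 and 3086 in 3A10t, and 4-1BB, Tnfrsf9, at 90.4, 84.2 and 89.995 against 136, 101 and 144. Their log2 fold changes were 0.52 and 0.50, with adjusted p = 0.074 and 0.10 in limma, and the groups overlapped for neither. Tnfrsf18 (GITR), Ccnd3 and the MAP kinase phosphatase Dusp6 also met the study's threshold, with log2 fold changes of 0.39, 0.45 and 0.76. Cish, which encodes the STAT5-induced inhibitor CIS, was at 247, 241 and 234 against 278, 306 and 282 TPM, above EV in 3 of 3 libraries but past neither threshold (log2 fold change 0.26 ± 0.091, adjusted p = 0.12, limma). Lta and the survival gene Bcl2 stood likewise, with log2 fold changes of 0.35 and 0.39 (adjusted p = 0.12 and 0.15, limma). Gzmb was at 37.2, 41.02 and 43.1 against 56.5, 73.5 and 67.7 TPM, and its standard error of 0.67, which all 12 libraries set, was as large as its log2 fold change of 0.69. Socs1 had a log2 fold change of 0.18 ± 0.12, Socs3 of −0.20 ± 0.22 and Il7r of −0.46 ± 0.16, and none passed.

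Promoters of 3 STAT5 targets that hold the motif more than once are given here because they show the sequence through which the pathway is known to act. They run from 250 bases before to 50 bases after the annotated start, from RefSeq on GRCm38.p6, with matches to TTCNNNGAA in capitals (the motif reads the same on both strands).
Cish, chr9:107296409-107296708 (+): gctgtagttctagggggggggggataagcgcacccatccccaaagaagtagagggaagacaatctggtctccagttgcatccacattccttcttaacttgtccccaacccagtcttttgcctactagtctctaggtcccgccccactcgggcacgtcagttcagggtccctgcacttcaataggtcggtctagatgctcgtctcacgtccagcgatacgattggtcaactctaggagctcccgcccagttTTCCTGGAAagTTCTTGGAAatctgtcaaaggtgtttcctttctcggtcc
Bcl6, chr16:23981234-23981533 (−), an annotated start inside the gene: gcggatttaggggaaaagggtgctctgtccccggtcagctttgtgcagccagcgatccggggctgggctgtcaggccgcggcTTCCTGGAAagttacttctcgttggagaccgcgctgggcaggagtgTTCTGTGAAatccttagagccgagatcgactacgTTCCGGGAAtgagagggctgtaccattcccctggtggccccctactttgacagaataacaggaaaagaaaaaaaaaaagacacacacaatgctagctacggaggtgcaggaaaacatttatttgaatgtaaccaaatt
Lta, chr17:35205302-35205601 (−): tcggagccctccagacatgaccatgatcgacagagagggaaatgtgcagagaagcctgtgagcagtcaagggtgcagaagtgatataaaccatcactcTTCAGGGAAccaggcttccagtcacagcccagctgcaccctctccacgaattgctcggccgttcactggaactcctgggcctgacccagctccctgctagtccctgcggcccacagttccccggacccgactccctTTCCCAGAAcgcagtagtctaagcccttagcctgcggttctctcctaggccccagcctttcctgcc
The 2 Cish motifs begin 0 and 11 bases after the start, and the 3 Bcl6 motifs lie 168, 122 and 88 bases before theirs. The promoter at the outer start of Bcl6, not shown, holds 1 motif. Of the 22 list members with a promoter in the table, 8 held the motif at least once (36.4%), against 780 of 9334 genes tested (8.36%). The list was made of known STAT5 targets, so this difference is no result of these libraries. Socs2 and Ccnd2 had no promoter among those available. Of genes at the study's threshold it was held by 26 of 232 higher (11.2%) and 73 of 795 lower ones (9.18%). A match describes these letters and is no measurement of STAT5 binding.

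Genes that mark Tregs stood at high levels and lay on both sides of EV. Of 24 identity genes tested, Itgae was called lower and 0 were called higher, beside 1.6% and 0.452% of all genes. The median log2 fold change of the list was 0.038, and −0.11 with TPM as deposited. Itgae encodes the integrin αE chain CD103, which binds E-cadherin on epithelium, on chromosome 11 from 73090583 to 73147446. It was at 30.7, 32.2 and 30.2 TPM in EV no IL-2 and 24.1, 11.1 and 12.1 in 3A10t, giving a log2 fold change of −1.02 ± 0.22 (adjusted p = 0.044, limma), with 3A10t replicate 1 nearest to EV. Without any single library other than that one its adjusted p was 0.10 to 0.16, and with the sort as a replicate block 0.053. Foxp3, the lineage factor of Tregs, was at 501, 489.8 and 492 against 463, 369 and 391 TPM, below EV in 3 of 3 libraries and at the study's threshold only (log2 fold change −0.28 ± 0.079, adjusted p = 0.082, limma). Lrrc32, which encodes GARP, the anchor of latent TGF-β, was at 87.1, 100.1 and 97.6 against 88.8, 59.5 and 55.1 TPM and met that threshold as well, but 3A10t replicate 1 lay among the EV libraries. Tigit, an inhibitory receptor, met it on the higher side, at 29.9, 25.6 and 31.9 against 33.96, 41.98 and 44.6 TPM, as did the transcription factor Batf (log2 fold change 0.40). Ctla4 (−0.12 ± 0.11) and Ikzf2, the gene of Helios (0.33 ± 0.24), passed no threshold.

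Of 14 suppressive mediators tested, 0 were called in limma and 6 had an unadjusted p under 0.05, which 26.0% of all genes had. Their median log2 fold change was 0.21. Lgals1, the gene of galectin-1, was at 517, 461 and 424 TPM in EV no IL-2 and 582, 773 and 593 in 3A10t, without overlap (log2 fold change 0.47 ± 0.12, adjusted p = 0.068, limma). Cd274, the gene of PD-L1, was at 9.13, 11.8 and 10.4 against 8.87, 5.28 and 6.58 TPM, also without overlap (log2 fold change −0.55, adjusted p = 0.077, limma). The ectoenzymes CD73 and CD39 make adenosine, which dampens T cells. Nt5e, the gene of CD73, was at 107, 128 and 130.3 against 115, 55.5 and 56.1 TPM, with replicate 1 within the EV range, and Entpd1, the gene of CD39, had a log2 fold change of −0.23 ± 0.12. Ebi3 (log2 fold change 0.34), Prf1 (0.42), Lag3 (0.55) and Pdcd1 (0.28) lay above EV in 3 of 3 libraries and passed no threshold. Il10 was at 11.96, 8.81 and 10.4 against 12.2, 17.1 and 15.4 TPM.

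The medians of protein synthesis and respiration genes were above 0 in replicates 2 and 3 and close to 0 in replicates 1. Of 84 cytoplasmic ribosomal protein genes tested, 0 were called in limma, 57 had an unadjusted p under 0.05 and 19 met the study's threshold, all 19 higher. Over all genes, 26.0% had such a p and 2.83% met that threshold on the higher side. The median log2 fold change of the ribosomal protein genes was 0.26. The median difference was −0.022 within replicates 1, 0.44 within replicates 2 and 0.40 within replicates 3. Rps6, of the small subunit, was at 521, 516 and 469 TPM in EV no IL-2 and 585, 701 and 617 in 3A10t. The 78 nuclear genes of the respiratory chain and ATP synthase had a median of 0.26 and the same order of sorts, at −0.007, 0.48 and 0.29. Of these 0 were called in limma, 38 had an unadjusted p under 0.05 and 8 met the study's threshold on the higher side, among them Cox5a (314, 309 and 274 TPM against 329.5, 481 and 376), Ndufa10 and Uqcrh. Sdhd, a membrane subunit of complex II, was the only one to meet it on the lower side, at 204, 203 and 183 against 163, 145 and 152 TPM (log2 fold change −0.36, adjusted p = 0.070, limma), and was picked out after its values were seen. With the sort as a replicate block its adjusted p was 0.045.

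The mitochondrial ribosome followed the same order. Its 78 genes had a median of 0.24, at −0.014, 0.47 and 0.25 within the sorts, with 0 called, 22 at an unadjusted p under 0.05 in limma and 1, Mrpl52, at the study's threshold. The 37 proteasome genes had a median of 0.22, at 0.012, 0.42 and 0.25 within the sorts, with 0 called, 10 at an unadjusted p under 0.05 and 2, Psma4 and Psmd11, at the study's threshold. Both lists stood near the 26.0% of all genes with such a p, and 2.83% of all genes met the threshold on the higher side. The 13 protein genes of the mitochondrial genome, made by another polymerase, had a median of 0.18, at 0.23, 0.15 and 0.32 within the sorts, but of −0.086 with quantile normalization, and 0 met either threshold in limma, with 4 at an unadjusted p under 0.05. With TPM as deposited the medians were 0.12 for the ribosome, 0.11 for respiration, 0.095 for the mitochondrial ribosome and 0.073 for the proteasome, where that of all genes was −0.091. Transcripts of these lists were short, with median lengths of 630.2, 608, 848 and 850.5 bases against 1043 over all genes. With the trend on length removed, the median was 0.19 for the ribosome and 0.18 for respiration.

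**Figure D3:**
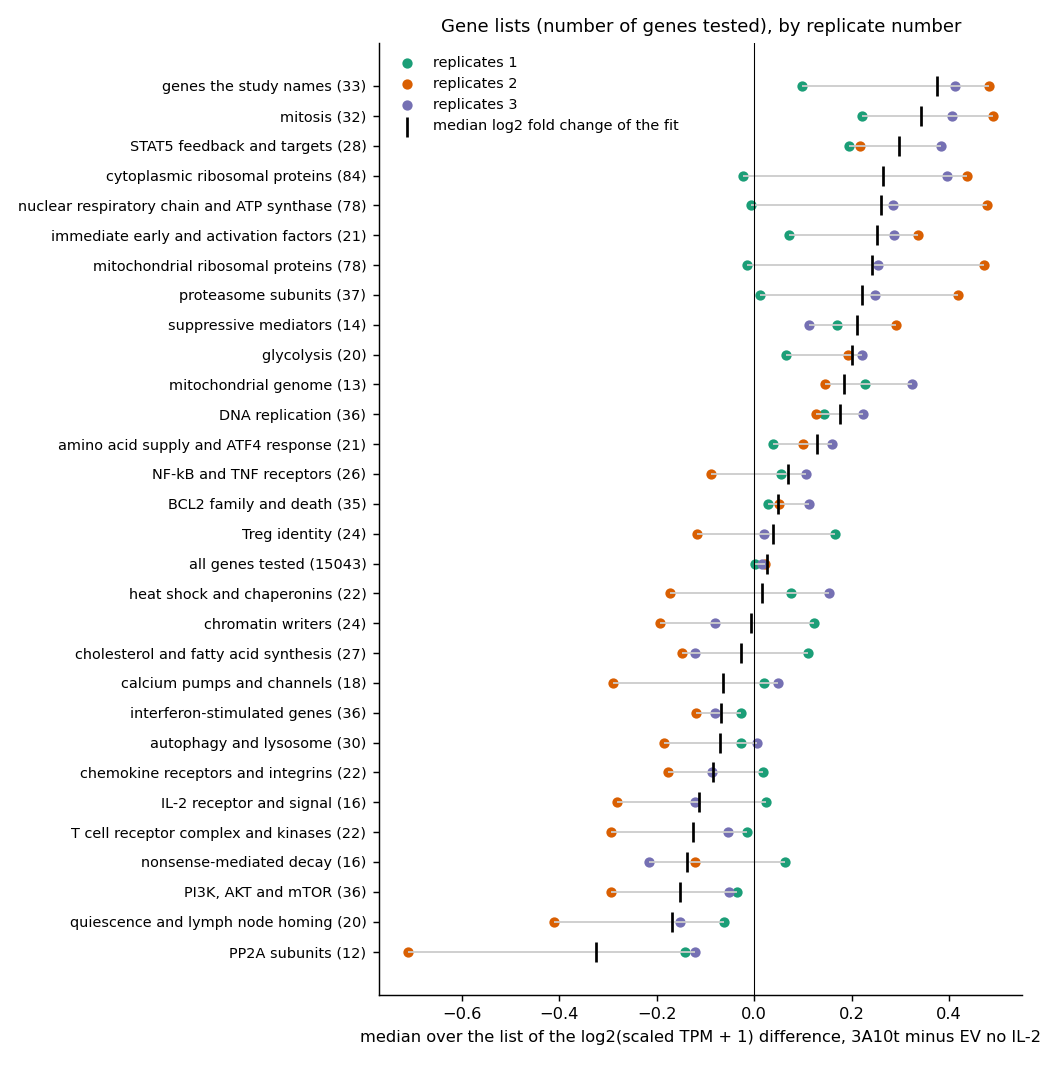
Median over each gene list (rows, number of genes tested in brackets) of the difference in log2(scaled TPM + 1) between 3A10t and EV no IL-2 (x axis), for each replicate number (coloured points) and for the fitted log2 fold change (black bars). Ribosomal and respiratory lists lie near 0 for replicates 1 and between 0.255 and 0.478 for replicates 2 and 3, and the PP2A list reaches −0.709 for replicates 2. The mitochondrial genome's median is negative with quantile normalization.

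The medians of cell division genes were above 0 in all 3 sorts, and the mitosis genes stood at low levels of expression. Of 36 DNA replication genes tested, Rfc4 and Gins2 were called higher and 0 lower, and of 32 mitosis genes Top2a was called higher and 0 lower. Over all genes 0.452% were called higher and 1.6% lower, and so few calls cannot be read against those shares. The median log2 fold changes were 0.18 and 0.34, and within the sorts they were 0.14, 0.13 and 0.22 for replication and 0.22, 0.49 and 0.41 for mitosis. Rfc4, a subunit of the clamp loader of DNA polymerase, was at 12.6, 11.2 and 12.2 TPM in EV no IL-2 and 17.5, 20.1 and 18.3 in 3A10t, giving a log2 fold change of 0.60 ± 0.085 (adjusted p = 0.015, limma). Gins2, part of the replicative helicase, was at 4.90, 5.01 and 4.98 against 6.78, 8.77 and 7.49 TPM (adjusted p = 0.04996, limma). Top2a, the topoisomerase that untangles replicated chromosomes, was at 7.24, 7.96 and 7.53 against 10.9, 10.7 and 12.3 TPM (log2 fold change 0.52 ± 0.095, adjusted p = 0.033, limma). Rfc4 kept its call without 3 of the 6 libraries and otherwise reached 0.059 to 0.082. Gins2 and Top2a lost theirs without any single library other than 3A10t replicate 1, at 0.11 to 0.17 and 0.069 to 0.14. Mki67, which encodes the proliferation antigen Ki-67 and was named after its values were seen, had a log2 fold change of 0.15 ± 0.17 that was −0.018 with quantile normalization.

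Among called protein-coding genes averaging 5 TPM or more over the libraries, the 9 largest increases beyond Il2 belonged to 1 family of repeats, described below. The next among protein-coding genes were taken after the values were seen. Pdlim4, a PDZ and LIM domain protein of the actin cytoskeleton on chromosome 11 from 54054928 to 54069014, was at 6.88, 7.09 and 5.84 TPM in EV no IL-2 and 11.5, 24.7 and 16.5 in 3A10t, giving a log2 fold change of 1.23 ± 0.26 (adjusted p = 0.044, limma). Gzmc, which encodes the protease granzyme C, on chromosome 14 from 56231441 to 56234656, was at 6.07, 6.25 and 5.75 against 11.004, 20.1 and 13.3 TPM (log2 fold change 1.13 ± 0.18, adjusted p = 0.020, limma). Pclaf, which encodes a partner of the replication clamp PCNA, was at 2.46, 2.17 and 2.22 against 3.90, 6.48 and 5.26 TPM. For each of these 3 genes replicate 2 was the highest and replicate 1 the lowest of the 3A10t libraries. Map1b (log2 fold change 0.72), which binds microtubules, Mettl1 (0.68), which methylates tRNA, and Shmt1 (0.66), an enzyme of folate metabolism, were called as well. All 6 lost the call without 3A10t replicate 3 or without any single EV library, and where a call was lost the adjusted p ranged from 0.054 to 0.17. With the replicate block the adjusted p of Pdlim4 was 0.059.

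The largest decreases came from genes of varied function. Edrf1, which encodes a regulator of erythroid differentiation, was at 19.2, 22.4 and 19.5 TPM in EV no IL-2 and 9.62, 5.66 and 6.68 in 3A10t, giving a log2 fold change of −1.39 ± 0.15 (adjusted p = 0.0032, limma). Atp2a2, the calcium pump SERCA2 of the endoplasmic reticulum, was at 28.8, 28.8 and 31.3 against 14.5, 6.08 and 13.9 TPM, and Upf1, the helicase of nonsense-mediated decay, at 13.4, 14.3 and 11.5 against 6.16, 3.01 and 5.42. In these 3 genes all 3A10t libraries lay below EV, with replicate 2 the lowest. Fam91a1 (log2 fold change −1.36), the kinase gene Sbk1 (−1.15), Esyt2 (−1.14), which tethers the endoplasmic reticulum to the plasma membrane, Cand1 (−1.14), an exchange factor of cullin ubiquitin ligases, Wac (−1.09) and the phosphoinositide phosphatase gene Sacm1l (−1.07) completed the 10 with Thy1. Edrf1 kept its call without any single library. The other 8 lost it without 3A10t replicate 3 or without any single EV library, with an adjusted p between 0.054 and 0.17 over the libraries whose removal ended a call. With the replicate block the adjusted p of Sacm1l was 0.05002.

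Only 19 genes kept their call without any single library, 13 of them lower, and those below were named after this count was seen. Zfp384, a zinc finger factor on chromosome 6 from 125009145 to 125037870, was at 42.8, 39.8 and 39.9 TPM in EV no IL-2 and 22.8, 15.7 and 18.9 in 3A10t, giving a log2 fold change of −1.07 ± 0.12 (adjusted p = 0.0035, limma). Kdm3a, a demethylase of lysine 9 of histone H3, was at 57.002, 61.1 and 61.9 against 37.7, 26.95 and 28.95 TPM (log2 fold change −0.94, adjusted p = 0.0052, limma). Rbl2, which encodes the pocket protein p130 that restrains E2F factors in resting cells, was at 115, 135 and 138 against 78.6, 67.4 and 58.5 TPM (log2 fold change −0.92, adjusted p = 0.0070, limma). Stag2, of the cohesin ring, was at 25.5, 26.5 and 26.6 against 18.4, 15.4 and 16.04 TPM. In these 4 genes the 3 3A10t libraries lay below EV without overlap. The kinase gene Stk26 (29.6, 29.4 and 28.6 TPM against 17.3, 16.1 and 16.7) had the narrowest 3A10t range of the 13. The remaining lower ones were Nadk2, which makes mitochondrial NADP, the autophagy lipid transporter gene Atg2a, the endosomal tethering gene Vps8, the flippase gene Atp8b2, the transporter gene Abca7 and the ubiquitin ligase gene March3, with log2 fold changes from −0.99 to −0.81, beside Edrf1 and Thy1. On the higher side, Il2 and Gm10718 were the only protein-coding genes among 6. The rest were noncoding genes listed at 0 outside 3A10t, which passed the filter on mean TPM only through 3A10t.

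**Figure D4:**
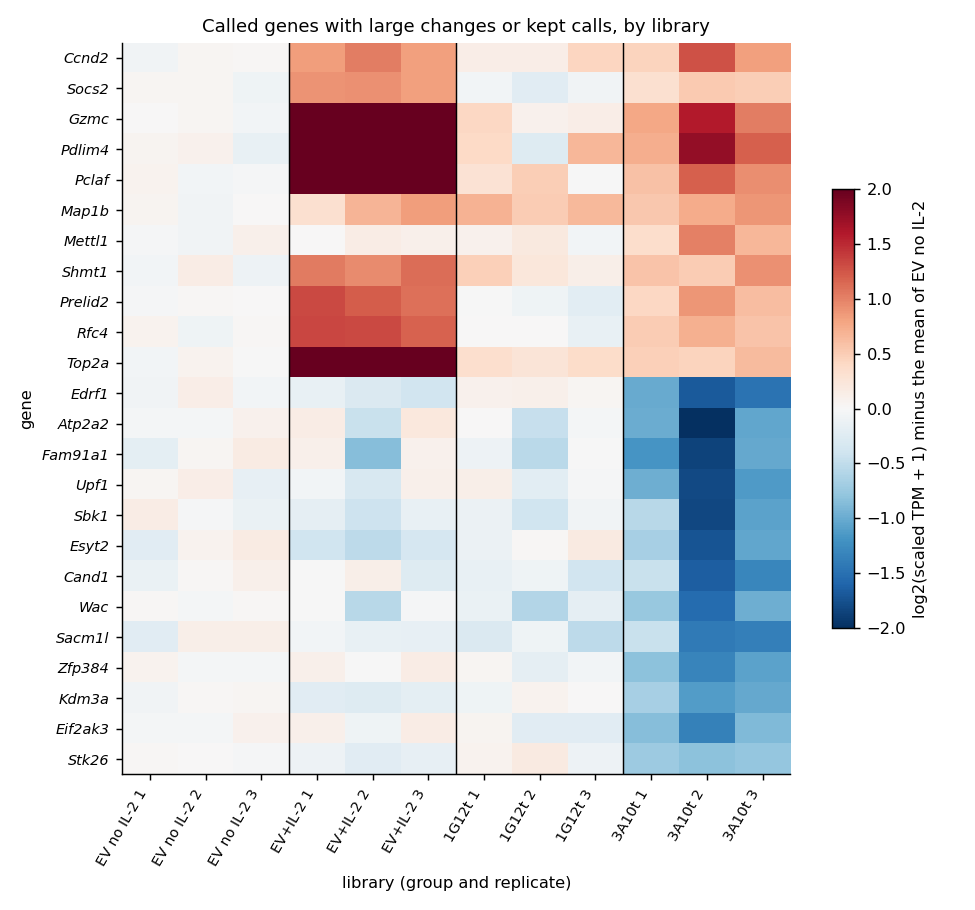
Difference in log2(scaled TPM + 1) from the mean of EV no IL-2 (colour, from −2 in blue to 2 in red, with larger values drawn at the limit) for 24 genes (rows) in the 12 libraries (columns). The 13 genes from Edrf1 down are blue in all 3 3A10t libraries and paler in every 1G12t and EV+IL-2 library, and replicate 2 of 3A10t is the darkest for most of them. Several of the genes above Edrf1 are darkest in EV+IL-2.

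Calls in signalling lists are set here beside those of all genes. The lists were chosen with earlier results of these data known, so the counts are no independent evidence of a direction. Calls were made on the lower side for 1.6% of all genes and on the higher side for 0.452%, so that 0 higher in such a list is no result about a list. Of 22 genes of the T cell receptor complex and its kinases tested, Plcg1 and Ptprc were called lower (list median −0.13, and −0.055 without 3A10t replicate 2). Plcg1, the phospholipase that makes IP3 after receptor contact, was at 72.4, 77.9 and 83.6 TPM in EV no IL-2 and 55.7, 27.2 and 37.4 in 3A10t, and Ptprc, the gene of the phosphatase CD45, at 589, 691 and 732 against 528, 384 and 429. For both genes 3A10t replicate 1 lay nearest to EV. Of 18 calcium pumps and channels, Atp2a2, Atp2a3 and Stim2 were called lower (list median −0.064, and −0.0055 with library weights). The log2 fold change was above 0 for 8 of the 18. Stim2, a calcium sensor of the endoplasmic reticulum, was at 54.8, 52.5 and 51.3 against 40.9, 21.1 and 28.6 TPM, and the pump gene Atp2a3 at 144, 165 and 156 against 127, 71.5 and 74.5. Orai2, of the entry channel for calcium, met the study's threshold on the lower side (log2 fold change −0.36). So did Stim1, a calcium sensor like Stim2 (log2 fold change −0.48). Without any single library other than 3A10t replicate 1, the adjusted p of Plcg1, Ptprc, Atp2a3 and Stim2 was between 0.055 and 0.17. With the replicate block it was 0.052 for Ptprc and 0.058 for Atp2a3.

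Of 22 chemokine receptors and integrins, Cxcr4, Itgal and Itgae were called lower and 0 higher (list median −0.083, and 0.013 with library weights). The lists of this paragraph were also chosen with earlier results of these data known. Cxcr4, the receptor of CXCL12, was at 31.9, 31.9 and 30.9 TPM in EV no IL-2 and 22.996, 12.6 and 14.5 in 3A10t, giving a log2 fold change of −0.92 ± 0.18 (adjusted p = 0.036, limma). Itgal, the α chain of the adhesion molecule LFA-1, was at 57.6, 65.2 and 67.02 against 50.2, 29.1 and 29.5 TPM. Among 20 genes of quiescence and lymph node homing, Tcf7, which encodes TCF-1, was called lower, at 214, 152 and 192 against 107, 63.3 and 101 TPM (log2 fold change −1.05 ± 0.23, adjusted p = 0.044, limma; list median −0.17). With the length correction that median was −0.045, and that of the chemokine receptors and integrins −0.017. S1pr1, which guides exit from lymph nodes, had a log2 fold change of −0.35 ± 0.13 and Ccr7, which guides entry, of 0.19 ± 0.11. Neither passed. Cxcr4, Itgal and Tcf7 lost the call without any single library other than 3A10t replicate 1, with an adjusted p of 0.082 to 0.17, and with the replicate block that of Itgal was 0.055.

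A single member was called lower in each of 4 further lists, too few to be read against the 1.6% of all genes called lower. These were Upf1 among 16 genes of nonsense-mediated decay (list median −0.14), Kdm6a among 24 chromatin writers (−0.0063, but 0.028 with quantile normalization), Ppp2r5c among 12 subunits of the phosphatase PP2A (−0.32) and Stat2 among 36 interferon-stimulated genes (−0.068). Kdm6a, a demethylase of lysine 27 of histone H3, was at 19.4, 21.7 and 21.6 TPM in EV no IL-2 and 13.7, 8.82 and 9.63 in 3A10t, and Ppp2r5c, a regulatory subunit, at 193, 201 and 181 against 152, 93.5 and 107. Of the PP2A genes 11 of 12 had a log2 fold change below 0, with medians of −0.14, −0.71 and −0.12 within the sorts and −0.20 without 3A10t replicate 2. Stat2, a transcription factor of the response to type I interferon, was at 33.5, 36.9 and 37.96 against 26.3, 20.7 and 21.3 TPM. In the same list Ifitm3, which restricts entry of viruses, was at 18.96, 20.1 and 15.2 against 22.4, 40.3 and 32.8 TPM and met the study's threshold on the higher side, whereas Gbp4 (40.7, 51.1 and 47.04 against 39.1, 34.2 and 32.4) met it on the lower side with 4 others. Kdm6a lost its call without 4 of the 6 libraries and Ppp2r5c and Stat2 without 5, with an adjusted p between 0.057 and 0.16.

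Other lists held 0 called genes in limma. In the PI3K, AKT and mTOR list of 36 (median −0.15, 10 with an unadjusted p under 0.05), 5 genes met the study's threshold on the lower side, including the catalytic subunit gene Pik3cd, at 151, 157 and 160.4 TPM in EV no IL-2 and 147, 100.4 and 91.1 in 3A10t. The median of the PI3K list was −0.039 with the length correction, −0.057 with quantile normalization and −0.044 without 3A10t replicate 2. In the BCL2 family and death list of 35 (0.048, 8), the TNF receptor gene Tnfrsf1b, at 141, 141 and 147 against 122, 60.3 and 68.4 TPM, and Ripk1, both on the lower side, were among the members that met it, while the pro-apoptotic genes Bax (log2 fold change 0.30 ± 0.14) and Bcl2l11 (−0.12 ± 0.18) passed neither threshold. With TPM as deposited that median was −0.1. In the list of 26 NF-κB factors and TNF receptors (0.068, 9), 3 genes met it in each direction, and the median was −0.075 with TPM as deposited. The 3 higher ones were Tnfrsf4, Tnfrsf9 and Tnfrsf18, and the lower ones Tnfrsf1b, the kinase gene Chuk and Tnfaip3, which restrains NF-κB. In the 30 autophagy and lysosome genes (−0.07, 6), Ulk1, the kinase that starts autophagy, met it on the lower side, and its adjusted p of 0.070 was 0.0076 with the replicate block. The bracketed pairs here and in the next paragraph are the list median and the number with an unadjusted p under 0.05. Over all genes 26.0% had such a p, and the study's threshold was met by 2.83% on the higher and 6.67% on the lower side.

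Among 20 glycolysis genes (0.20, 11), 4 met the study's threshold on the higher side, and the median was 0.054 with quantile normalization. Ldha, which makes lactate, was at 945, 987 and 899.9 TPM in EV no IL-2 and 1094, 1511 and 1283 in 3A10t, giving a log2 fold change of 0.45 ± 0.10 (adjusted p = 0.056, limma), and Tpi1, Gapdh and Pgk1 were the others. Of 27 genes of cholesterol and fatty acid synthesis (−0.028, 7), Acly, which makes acetyl-CoA from citrate, was, at 122, 139 and 138 against 110.3, 60.8 and 60.2 TPM, among the members that met the threshold on the lower side, and Fdps met it on the higher. Its median was 0.032 with quantile normalization. Of 21 genes of amino acid supply and the ATF4 response (0.13, 5), Phgdh and Slc7a1, with an adjusted p of 0.047 under the replicate block, met it as higher, and the median was −0.019 with TPM as deposited. Of 22 heat shock and chaperonin genes (0.017, 6), Hsp90aa1 met it as higher and Hsph1 as lower, and the median was −0.12 with TPM as deposited. Of 21 immediate early and activation factors (0.25, 5), Nr4a1 met it as higher and Nfatc1 as lower.

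A list of 33 tested genes that the study names in its account of these libraries had 4 calls, Socs2 and Ccnd2 higher and Wac and Ppp2r5c lower. The study's threshold was met by 13 of the genes on the higher (2.83% of all genes) and 6 on the lower side (6.67%). That list was chosen on these same samples and is not independent evidence of its direction. Among its members not described above, Birc5, which encodes survivin of the mitotic spindle, was at 7.48, 3.85 and 4.04 TPM in EV no IL-2 and 7.82, 18.1 and 11.5 in 3A10t, with EV replicate 1 close to 3A10t replicate 1 (log2 fold change 1.12 ± 0.30, adjusted p = 0.075, limma). Stk24, a kinase gene, was at 106, 108 and 101 against 78.9, 44.2 and 75.8 TPM (log2 fold change −0.70, adjusted p = 0.075, limma). Ifitm1 was at 1.15, 1.48 and 1.05 against 3.00, 2.54 and 2.74 TPM, without overlap and past neither threshold.

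A family of near-identical genes, with tested members on chromosomes 2, 9 and 14, which includes Gm10800, Gm10801 and Gm10718, took more of the RNA in 3A10t. The family is annotated as protein coding but shares repeated sequence, so reads cannot be assigned to a single member with certainty. The 12 family members in the table made up 0.429, 0.399 and 0.568% of TPM in EV no IL-2 replicates 1 to 3 and 2.03, 3.79 and 2.63% in 3A10t. All 10 genes tested lay above EV in 3 of 3 libraries, as 13.3% of all genes did, and 9 were called higher, beside 0.452%. Members that share reads are not independent of each other, and the list was chosen with earlier results of these data known. These counts are thus a description. Gm10800 was at 2651, 2452 and 3196 TPM in EV no IL-2 and 11566, 21023 and 17326 in 3A10t, giving a log2 fold change of 2.55 ± 0.37 (adjusted p = 0.016, limma). Gm10718 was at 6.73, 7.69 and 10.9 against 33.2, 39.7 and 41.01 TPM and kept its call without any single library. Gm10800 lost it without 4 of the 6 libraries, at an adjusted p of 0.065 to 0.094. Against 1G12t the log2 fold change of Gm10800 was 1.85 (adjusted p = 0.033, limma) and against EV+IL-2 5.39 (adjusted p = 1.3e-05, limma), where the family took 0.0404, 0.0407 and 0.1%.

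Transcript length, which the choice of genes did not use, is given next as a description without a test. Among protein-coding genes the median length was 2015 bases for the 235 called lower, 804 for the 40 called higher and 1316 for all 11052 tested. In deciles of length, the median log2 fold change went from 0.11 in the shortest, of 641.0 bases or less, to −0.22 in the longest, of 3325 bases or more. In the longest decile 66 genes were called lower (5.97%) and 0 higher, in the shortest 13 lower (1.17%) and 7 higher. The relation was present in replicates 2 and 3 but not in replicates 1. In the longest decile the median difference was −0.0057 within replicates 1, −0.35 within replicates 2 and −0.29 within replicates 3. With the trend on length removed from each library, 215 genes were called, 53 higher and 162 lower, and 200 of them were among the 308. Among the genes named above, that correction ended the call of Bcl6 (log2 fold change −0.46, adjusted p = 0.12, limma) and of Atp2a3, Cand1, Fam91a1, Gins2, Itgae, Itgal, Pdlim4, Sacm1l, Sbk1, Shmt1 and Tcf7, whose adjusted p lay between 0.052 and 0.063.

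**Figure D5:**
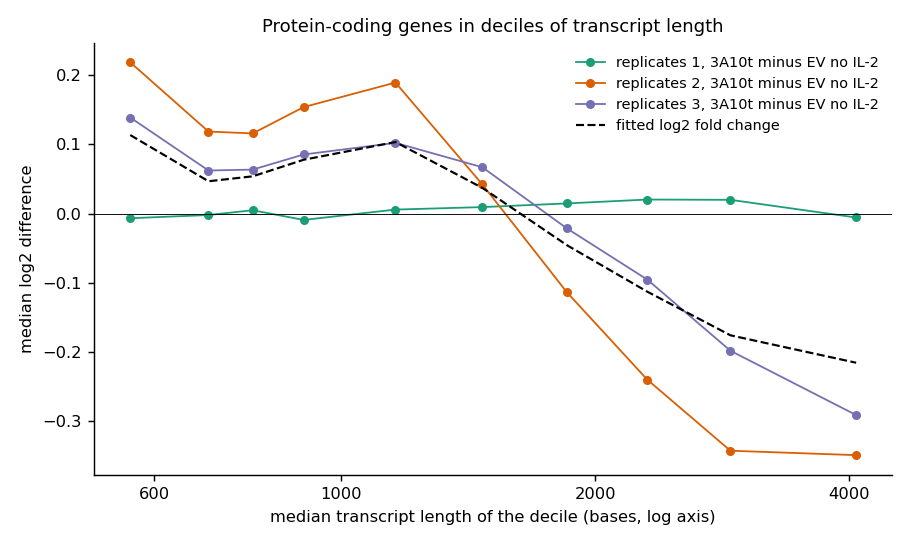
Median log2 difference between 3A10t and EV no IL-2 (y axis) in 10 deciles of transcript length over the 11052 protein-coding genes (x axis, median length in bases, log scale), for each replicate number (coloured lines) and for the fitted fold change (dashed line). Replicates 1 stay between −0.0092 and 0.020, and replicates 2 fall from 0.219 to −0.350.

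Tested directly, 3A10t differed from the other groups as follows. Against 1G12t, kept under the same conditions with a different mutant IL-2, 642 genes were called (4.27%), 196 higher (1.3%) and 446 lower (2.96%) in 3A10t. Against EV+IL-2, 3513 were called (23.4%), 1551 higher (10.3%) and 1962 lower (13.0%). These comparisons share the 3A10t libraries with the one above, so agreement between them is no separate evidence. Bcl6, at 6.36, 7.48 and 4.96 TPM in 1G12t, was lower in 3A10t than there (log2 fold change −0.81, adjusted p = 0.021, limma), and at 1.66, 1.64 and 1.75 TPM in EV+IL-2 it was lower still in that group than in 3A10t (0.62, adjusted p = 0.0086). Ccnd2 did not pass against 1G12t (0.61, adjusted p = 0.060) nor against EV+IL-2 (−0.046, adjusted p = 0.88).

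For the STAT5 list, 17 of 28 genes were called lower and 2 higher in 3A10t when set against EV+IL-2, with a median log2 fold change of −0.61, while 1 was called higher and 2 lower than in 1G12t, with a median of 0.20. For mitosis all 32 genes were called lower than in EV+IL-2, with a median of −2.13, and 2 higher than in 1G12t. Top2a was at 68.9, 59.4 and 54.7 TPM in EV+IL-2 against 10.9, 10.7 and 12.3 in 3A10t. Some genes that kept their call without any single library differed in this respect. They were picked on the same 3A10t values, and of the largest decreases only Edrf1 is given here. Edrf1 was at 21.6, 21.95 and 20.9 TPM in 1G12t and 18.2, 16.4 and 15.3 in EV+IL-2 and was lower in 3A10t than in both (log2 fold changes −1.46 and −1.11, adjusted p = 0.0027 and 6.1e-04, limma), as were Zfp384, Kdm3a, Rbl2, Stag2 and Stk26, with adjusted p up to 0.0086. Itgae was lower than in EV+IL-2 (−1.07, adjusted p = 0.0064) but did not pass against 1G12t (−0.80, adjusted p = 0.059). Of the 84 ribosomal protein genes, 16 were called higher than in 1G12t and 4 lower than in EV+IL-2, with medians of 0.31 and −0.11.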

How the data were processed

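RNA of Thy1.1+ Tregs was measured in 12 libraries. Full-length cDNA was primed with oligo-dT, amplified for 15 cycles, cut with a transposase, amplified for 9 more and sequenced as 50-bp pairs. The authors trimmed reads with cutadapt 1.18, aligned them to mm10 with STAR 2.5.3 and estimated gene levels with RSEM 1.3.0, and the submitters' processing notes also list DESeq2 1.26. The deposited TPM values are shares of a library's transcripts corrected for length, so depth is unknown and no count test was run.

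TPM were scaled by median-of-ratios factors over the genes tested (mean TPM from 1 up) and tested on log2(TPM + 1) with limma 3.58.1 (R 4.3.3), lmFit and eBayes with a trend, 1 mean per group, Benjamini-Hochberg over 15043 genes, after a test on simulated data. A log2 fold change on this scale understates the change of low genes. The study's threshold was applied to the same fit. Symbols were matched to GENCODE M21 (53569 of 55228), whose GRCm38 coordinates are given, and 42 tested symbols stood for more than 1 gene. Replicate numbers pair the libraries because the labels tie each to a sort. Deviations from the group means of same-numbered EV and 3A10t libraries correlated between −0.10 and 0.05 over genes in 3 pairs. Named genes were the list members (for most lists the 3 highest and up to 4 called), the 10 largest changes each way among protein-coding genes with a mean TPM from 5 up, and those said to be chosen after their values were seen. The members and lists were chosen with earlier results of these data known. Results of a few genes are not reported here. No columns of the authors' own comparisons were used.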

Additional observations from a re-analysis of the deposited data

How the results depend on the processing

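The count of 308 called genes was 499 with TPM as deposited, 186 without a trend, 182 with quantile normalization, 666 over protein-coding genes alone, 6774 with library weights and 3072 with gene-by-gene weights. The last was added after seeing the data because the estimation of the library weights stopped before it converged, at a weight of 22.9 for 3A10t replicate 3. With only the 6 libraries compared the count was 4 (2576 at an unadjusted p under 0.05), and 0 with the replicate block as well (1644), an alternative added after seeing the data. Leaving out 1 library gave 25 to 3469 genes. At the study's threshold the 1429 genes became 3270 with no filter on low TPM, 4873 with library weights, 2948 with gene-by-gene weights, 568 with only the 6 libraries and 201 with the block added, and 741 to 3256 without 1 library. The 568 were 272 higher and 296 lower, and the 201 were 120 higher and 81 lower. The share called higher, 22.1% of 308, was 10.6% with TPM as deposited and 67.6% with no filter. The cause of these changes was not tested. With the sort as a replicate block in all 12 libraries the counts were 402 and 1581, and 250 of the 308 kept their call. Among named genes the block ended the call of 7, given beside 6 of them above and for Eno3 below, and added Sdhd, Slc7a1 and Ulk1. A pseudocount of 0.1 or 5, a floor of 5 on the mean TPM and the length correction left both counts within 1.5 times. Of single genes that passed no test, Jak3 was at 0.070 with the length correction with and without the block, Mki67 at −0.018 with quantile normalization and Ctla4 between −0.21 and 0.023 without 1 library. With 3 libraries a group an exact permutation test of single values cannot reach a p below 0.1.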

Other observations

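Further genes were called higher, and these were chosen after their values were seen. Hist1h2ap, a histone H2A gene of dividing cells, was at 55.8, 50.6 and 42.3 TPM in EV no IL-2 and 71.8, 126 and 85.2 in 3A10t (adjusted p = 0.041, limma), and its near-identical copies make the level of a single one uncertain. Siva1, whose product binds CD27 and promotes apoptosis, was at 52.2, 48.8 and 44.2 against 66.4, 71.4 and 65.3 TPM, and Stc2, which encodes a secreted glycoprotein, at 15.8, 15.6 and 15.5 against 18.4, 25.4 and 22.8 (adjusted p = 0.034 and 0.044, limma). Eno3, an enolase gene of glycolysis best known from muscle, was at 54.1, 48.3 and 46.8 against 65.01, 78.2 and 70.6 TPM (adjusted p = 0.044, and 0.059 with the replicate block, limma). Eno3 and Stc2 lost the call with the length correction (0.057 and 0.053), and all 4 lost it without any single library other than 3A10t replicate 1, with an adjusted p of 0.052 to 0.17. Eif2ak3, which encodes PERK, the kinase sensor of unfolded protein in the endoplasmic reticulum, was lower, at 18.05, 18.2 and 19.8 against 9.85, 6.72 and 9.61 TPM (adjusted p = 0.011, limma), and lost the call only without EV no IL-2 replicate 3 (0.070).

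Of the 68 genes called higher 28 were not annotated as protein coding, and 5 of the 240 called lower were not. Of the 28, 11 were snoRNA, snRNA, miRNA, rRNA or misc_RNA genes, in libraries primed with oligo-dT. Gm22183 was listed at 0 in all 9 libraries of the other 3 groups and at 51.5, 33.5 and 24.5 TPM in 3A10t replicates 1 to 3. Mir199b, Gm24125 and n-R5s7 were likewise listed at 0 in the 9 other libraries, and at 11.7, 7.95 and 5.66 TPM, 5.68, 8.06 and 8.45 TPM and 8.51, 5.89 and 3.06 TPM in 3A10t. Their transcripts are 73.000, 110.0, 137 and 121 bases long. With 0 in all other libraries, they passed the filter on mean TPM only through 3A10t, so their calls are a description. Gm24503 was listed at 0 in the EV libraries with and without IL-2, at 6.83, 0 and 1.95 TPM in 1G12t and at 5.96, 8.43 and 11.8 in 3A10t. Firre, a long noncoding RNA gene of the X chromosome, was among the 5 lower ones, at 7.94, 9.36 and 7.66 against 5.78, 5.77 and 4.55 TPM.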
